A study of Mus musculus with 8 samples.

Results

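The mouse families miR-297, miR-466, miR-467 and miR-669 were followed in kidney after lipopolysaccharide (LPS), the endotoxin of Gram-negative bacteria. They were found by name: every non-control miRNA on the array whose name begins with one of these 4 family names was taken, which gave 61 members of 1881 miRNAs. The LPS group held 4 arrays from kidneys of mice injected into the peritoneal cavity with LPS at 10 µg per g of body weight, a model of septic acute kidney injury. The sham group held 4 arrays from mice given saline, and kidneys of both groups were collected after 24 h. The sources used here give no strain, sex, age or genotype. Whether the arrays stand for separate mice is not stated either, so the p-values reflect only how far these samples scatter, which may be technical. Total RNA labelled with Cy3 was bound to short DNA probes that pair with the mature miRNAs, and arrays are named by the replicate numbers of the labels (sham 5, 6, 7 and 8, LPS 6, 10, 11 and 12).

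A miRNA hairpin is cut into a duplex whose left and right strands are called the 5p and 3p arms. Usually one arm is loaded into an Argonaute protein, where bases 2 to 8, the seed, pair with messenger RNAs and lower their output. The 4 families form a large rodent-specific cluster of repeated hairpins inside Sfmbt2, an imprinted Polycomb-related gene, and are known best from placenta and embryonic stem cells. Their arms are made largely of simple repeats: many 5p arms are rich in U and G, and many 3p arms in C and A. A probe for a 5p arm therefore often holds alternating A and C, and a probe for a 3p arm alternating G and T.

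The name of the cluster did not cover all members. In the RefSeq annotation of GRCm38.p6, used for names and neighbourhood only, 49 members had hairpin genes only inside Sfmbt2 on chromosome 2, 3 had them inside and outside, 8 only outside, and miR-466a-5p matched none. Sfmbt2 held 72 miRNA genes, of which 71 belonged to the 4 families. Of the 9 members that could be tested, the hairpins of 3 (miR-466h-3p, miR-669c-3p and miR-669p-3p) lay only inside Sfmbt2 and those of miR-466f-3p on both sides. By RefSeq the hairpins of the other 5 lay only outside it, with Mir466i on chromosome 13, Mir467f on 11, and Mir466q and Mir669n on 3. The array files instead place the miR-669n probes on chromosome 2. They also list miR-669c-5p for these probes, and its hairpin Mir669c lies inside Sfmbt2. These data are therefore on families by name and sequence, and only in part on the cluster inside Sfmbt2.

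The probes of the 9 tested members carry the pattern on which the results turn, and the longest probe of each is printed here as the array files give it, 5′ to 3′, with its longest alternating repeat in capitals. A pair of them hold an A and C repeat, and the other 7 hold a G and T repeat of 10 or more bases.
miR-466i-5p: CACACACACACACACA
miR-669n: acacacatcCACACACAa
miR-466h-3p: GTGTGTGTGTGcgt
miR-466f-3p: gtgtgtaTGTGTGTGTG
miR-669c-3p: tttactTGTGTGTGTGTG
miR-467f: tgtagGTGTGTGTGTGT
miR-466q: acgtaTGTGTGTGTGTG
miR-466i-3p: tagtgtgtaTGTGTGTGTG
miR-669p-3p: atacGTGTGTGTGTGTatg

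Mature sequences from RefSeq (GRCm38.p6) matched 7 of the 61 members, 4 of them tested. Their seeds, in capitals, were 7 different ones, so no seed was shared among the matched members. All 7 had RefSeq hairpin genes only outside Sfmbt2, so the seeds of members inside it were not compared.
miR-466i-3p: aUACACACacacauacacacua
miR-466q: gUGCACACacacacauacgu
miR-467f: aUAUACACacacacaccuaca
miR-669n: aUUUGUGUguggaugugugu
The probes of all 7 were complementary to the mature sequence and reached its 3′ end. The longest miR-467g probe covers it whole, from base 1 to 21, while the miR-466q probe pairs with bases 4 to 20 and the miR-467f probe with bases 5 to 21. In these last examples the CA repeat begins within the seed and makes up much of the paired stretch. Members with such probes share sequence and are not independent measurements, and how far each probe also binds the RNA of other members was not tested.

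Members were detected about as often as other miRNAs on the array. Detection on an array required that one or more probes of the miRNA had over 50% of their spots marked by the scanner software as well above background. By that rule 11 of 61 members (18.0%) were detected on at least 1 array, against 393 of the 1820 other miRNAs (21.6%), and 50 members on none. For those 50, the signal of the brightest probe on each array was averaged over the 8 arrays. This average had a median of 2.55 and reached at most 9.03, in miR-466g. The dimmest detected probe of any kind read between 16.6 and 20.4, depending on the array. By family, 0 of 3 miR-297 members, 5 of 23 miR-466, 2 of 12 miR-467 and 4 of 23 miR-669 members were detected. The count per array was 9, 8, 9 and 9 on sham 5, 6, 7 and 8 and 9, 10, 9 and 8 on LPS 6, 10, 11 and 12. The groups overlapped in this count, and an undetected member has only an upper limit at this signal over background.

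The 2 arms were detected unequally. Of the 26 members named as 3p arms 7 were detected (26.9%), and of the 25 named as 5p arms 1 (4%), miR-466i-5p. Among the other miRNAs the order was the opposite, with 134 of 759 3p arms (17.7%) and 195 of 750 5p arms (26%). Of the 10 members with no arm in their name 3 were detected: miR-466q, miR-467f and miR-669n. Members share sequence, so these shares are a description, and no test was made between arms.

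Detection went with the length of the G and T repeat in the probe. All 8 members with a G and T run of 10 or more bases in a probe were detected on at least 1 array, and 7 of them were tested. Of 9 members whose longest such run was 8 or 9 bases, 1 was detected, miR-467b-3p on sham 8. Of 6 members with an A and C run of 8 or more bases, 2 were detected, miR-466i-5p with 16 bases and miR-669n with 8. Length did not order these: miR-466a-5p and miR-466p-5p, with 9 bases, were detected on 0 arrays. None of the 38 members with neither run was detected (0 of 38). Outside the families 0 miRNAs on the array had a G and T run of 8 or more bases and 7 had an A and C run of that length. Within a member the same order was seen: only the longer probe of miR-466i-3p, miR-466q and miR-669c-3p was detected, and only the 2 longest of the 4 probes of miR-466f-3p. The undetected probes of miR-466q and miR-669c-3p still hold runs of 11 bases. A miR-466f-3p probe with 9 bases was detected on 2 sham and 0 LPS arrays. The cut at 10 bases therefore describes members and does not hold for single probes. It lies where the detection of these same members changes, so the split at 10 bases is a description and no test of it was made. Longer probes differ from shorter ones in length as well as in repeat, and the part of each was not tested.

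**Figure D1:**
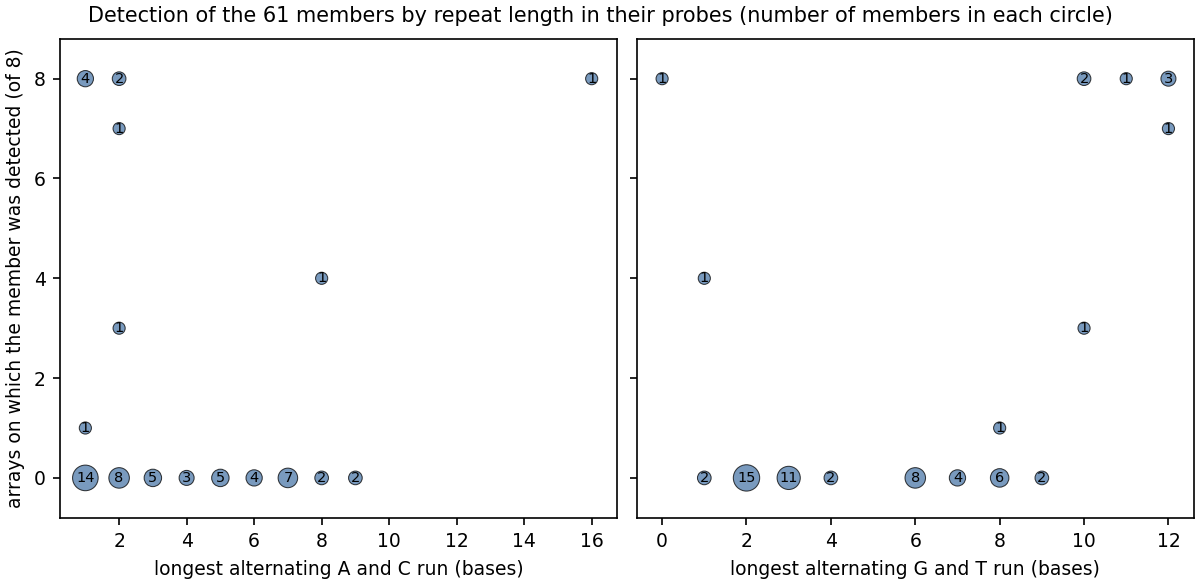
Number of arrays, of 8, on which each of the 61 members was detected, against the longest alternating A and C run (left) or G and T run (right) in any of its probes, in bases. Each circle gives the number of members at that point; all 8 members with G and T runs of 10 or more bases lie above 0.

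The members that passed the test moved in opposite directions. After LPS miR-466i-5p rose 2.00-fold and miR-669n, which was below background on every sham array, by at least 1.43-fold. The members miR-466h-3p, miR-466f-3p, miR-669c-3p and miR-467f fell by 0.30 to 0.37 log2 units, or by 18.8% to 22.7%. In all, 6 of the 9 tested members passed (limma, Benjamini-Hochberg adjusted over 338 miRNAs, threshold 0.05), against 40.2% of all tested miRNAs. By direction, 2 of 9 were higher (14.8% of all tested) and 4 of 9 lower (25.4%), and groups did not overlap for 4 of 9 (37.0%). These shares rest on 9 members that share repeats. Among those counted as higher and without overlap, miR-669n entered the test only through the LPS arrays, where it was high. The median difference of the 9 was -0.26 log2 units, beside -0.08 for all 338, and 7 of the 9 were below 0, as were 215 of the 338 (63.6%). All levels below are on a log2 scale on which 0 is the 75th percentile of the same array, and levels of different miRNAs are not compared because their probes differ.

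**Figure D2:**
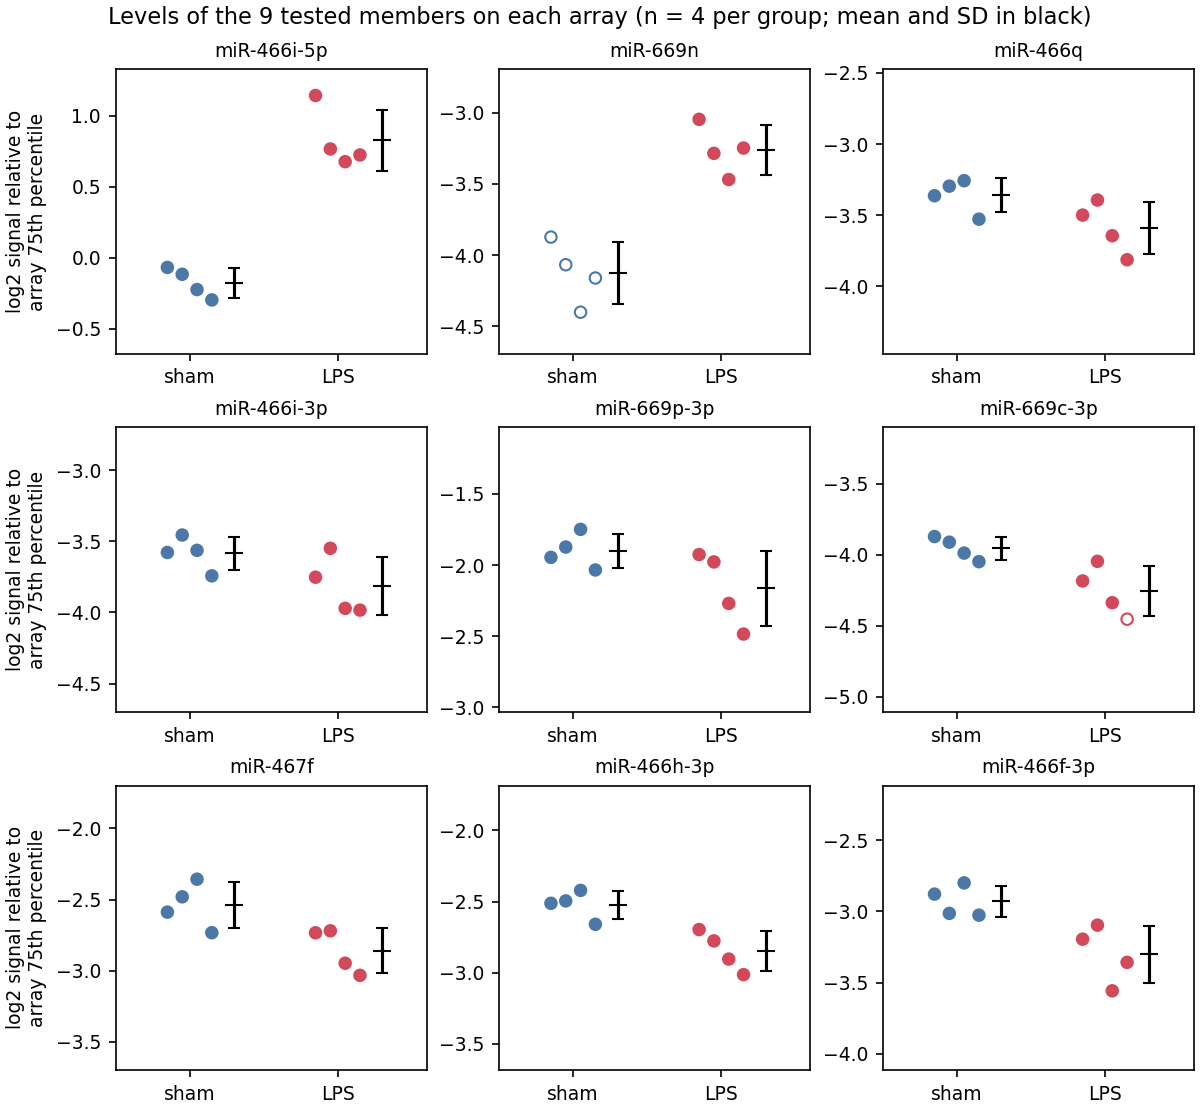
Level of each tested member on each array (log2 signal relative to the array's 75th percentile), sham in blue and LPS in red, n = 4 per group, mean and SD in black. Filled points are detected and open points are not; each panel spans the same 2 log2 units. Both members in the first panels, miR-466i-5p and miR-669n, are higher on all 4 LPS arrays than on any sham array.

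MiR-466i-5p, the 5p arm of a hairpin on chromosome 13, was detected on all 8 arrays. Its level was -0.07, -0.12, -0.22 and -0.30 on sham 5, 6, 7 and 8, and 1.14, 0.76, 0.68 and 0.72 on LPS 6, 10, 11 and 12. LPS 6 was the highest array, the other LPS arrays lay close together, and the groups did not overlap. The difference was 1.0 ± 0.11 (SE, n = 4 per group, limma adjusted p = 3.03e-04), a 2.00-fold rise. Each of its 2 probes gave 1.0 on its own, and before scaling the 16-base probe read 226 to 257 on sham and 454 to 621 on LPS arrays. The test was passed under all 23 alternatives, with values from 0.82 to 1.08. The array files give no genome position for these probes, which consist of the A and C repeat alone. Whether they read only this arm was not tested.

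MiR-669n was detected on 4 of 4 LPS arrays and 0 of 4 sham arrays. Its level was -3.05, -3.29, -3.47 and -3.25 on LPS 6, 10, 11 and 12, and the sham values, not well above background, were -3.87, -4.07, -4.40 and -4.16. Because sham gives only a limit, the rise is given as a bound of at least 1.43-fold for its brightest probe, and the fit gave adjusted p = 0.00143. The bound sets the mean of the LPS arrays against the higher of the probe's own signal and the lowest signal above background on each sham array. This member entered the test through the LPS arrays alone, so it could be tested only because it was high there. The fitted log2 difference of 0.86, taken against sham signals below background, became 0.41 with a floor 1 log2 unit higher and 0.15 with normexp background correction, whose offset of 50 in itself makes differences of dim miRNAs smaller. Its annotation also lists miR-669c-5p, and the array files place the shorter probe at chr2:10430952-10430967 (mm9). RefSeq places the hairpin Mir669n on chromosome 3 instead. The rise may be of miR-669n, miR-669c-5p or both, which cannot be told apart. Whether the probes also bind other RNAs with similar repeats was not tested.

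MiR-466h-3p and miR-466f-3p fell without overlap between groups. The level of miR-466h-3p was -2.51, -2.50, -2.42 and -2.66 on sham 5, 6, 7 and 8 and -2.70, -2.78, -2.90 and -3.01 on LPS 6, 10, 11 and 12. LPS 6 lay just below sham 8, the lowest sham array, and the difference was -0.33 ± 0.08 (SE, n = 4 per group, limma adjusted p = 0.0185). For miR-466f-3p the sham levels were -2.88, -3.01, -2.80 and -3.03 and the LPS levels -3.20, -3.10, -3.56 and -3.36. LPS 11 was the lowest array and LPS 10 the nearest to sham. The difference was -0.37 ± 0.11 (limma adjusted p = 0.0265).

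MiR-669c-3p and miR-467f passed the test although their groups overlapped. MiR-669c-3p read -3.87, -3.91, -3.99 and -4.05 on sham 5, 6, 7 and 8 and -4.18, -4.05, -4.34 and -4.45 on LPS 6, 10, 11 and 12, where it was detected on 3 of 4 arrays. The difference of -0.30 ± 0.09 (limma adjusted p = 0.0333) is therefore not an exact value. Its probes lie at chr2:10430992-10431007 (mm9) for the shorter one, near that of miR-669n. MiR-467f read -2.59, -2.48, -2.36 and -2.73 on the sham arrays and -2.73, -2.72, -2.95 and -3.03 on the LPS arrays, with a difference of -0.32 ± 0.10 (limma adjusted p = 0.0398). In both, LPS 10 or LPS 6 lay level with sham 8, and LPS 11 and LPS 12 were lowest.

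The other 3 members with G and T repeats did not pass the test. MiR-466q read -3.36, -3.30, -3.26 and -3.53 on sham 5, 6, 7 and 8 and -3.50, -3.39, -3.64 and -3.81 on LPS 6, 10, 11 and 12, with a difference of -0.23 (95% interval -0.46 to 0.01, limma adjusted p = 0.111). MiR-669p-3p, whose shortest probe the array files place at chr2:10410802-10410817 (mm9) and at a second site there, read -1.95, -1.87, -1.75 and -2.03 on the sham arrays and -1.93, -1.98, -2.27 and -2.48 on the LPS arrays. LPS 6 and LPS 10 lay within the sham range, and the difference was -0.26 (95% interval -0.56 to 0.03, limma adjusted p = 0.138). MiR-466i-3p is described with its other arm. These intervals include both no difference and falls as large as those of the members that passed.

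The 4 falls were small and depended on the scaling between arrays and on single arrays. None of the 4 passed (0 of 9 members) with the 75th percentile taken over all probes, without scaling, or in the authors' deposited ratio table, and 2 did with slide column as a block. The count was 0 without sham 7 or without LPS 11, 1 without sham 5 or LPS 12, 2 without sham 6 and 6 without LPS 10. With normexp the differences of the 7 G and T members shrank to between -0.15 and -0.09. With the mean of log2 over probes in place of the sum, miR-466f-3p differed by -0.14, miR-466q by -0.14, miR-669c-3p by -0.11 and miR-466i-3p by -0.09. MiR-466f-3p still passed the test there and miR-669c-3p did not. All 7 G and T members had differences below 0 in each alternative that tested them, except that miR-669c-3p was 0 with the higher floor. In 6 of the 7 the LPS array was also the lower of the pair in all 4 columns of the slide, and miR-669p-3p was lower in 3 of 4. No such count was made over all tested miRNAs. The 7 members share repeats and vary together, so they are not 7 separate observations.

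**Figure D3:**
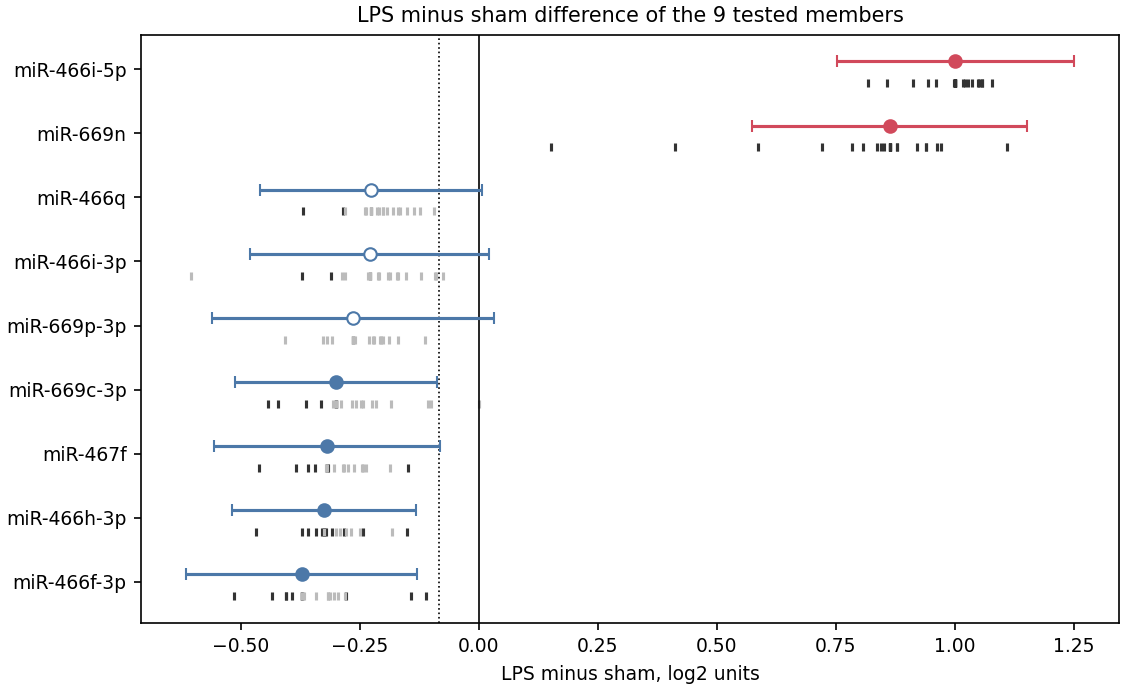
LPS minus sham difference of each tested member (points, log2 units) with its 95% interval, filled where adjusted p was under 0.05; the dotted line is the median of all 338 tested miRNAs (-0.08). Ticks under each point are the values under the alternatives, dark where the test was passed and grey where it was not; those of miR-466i-5p are all dark, from 0.82 to 1.08. The point of miR-669n is a fitted value against sham signals below background.

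The probe signals for the arms of miR-466i went apart. MiR-466i was the only member precursor with both arms tested. The ratio of its arms on one array is not changed by a single scaling factor per array, while other ways of making arrays comparable can change it. MiR-466i-3p, which lies at chr13:17839391-17839407 (mm9, shorter probe), read -3.58, -3.46, -3.56 and -3.74 on sham 5, 6, 7 and 8 and -3.75, -3.55, -3.97 and -3.98 on LPS 6, 10, 11 and 12. Its difference was -0.23 (95% interval -0.48 to 0.02, limma adjusted p = 0.132). The log2 signal of 5p minus 3p was 3.51, 3.34, 3.34 and 3.45 on the sham arrays and 4.89, 4.31, 4.65 and 4.71 on the LPS arrays. Every LPS array lay above every sham array, with LPS 10 the lowest of them. The change was 1.23 ± 0.11 log2 units (SE, n = 4 per group, limma adjusted p = 4.94e-05 over 35 precursors), or 2.35-fold, while 34.3% of the 35 precursors passed. By size it ranked 3 of 35, after miR-21a and miR-149, whose arm ratios moved the opposite way. The value of 5p minus 3p itself compares different probes and is not a ratio of amounts; only its change between groups is read. Both 5p probes consist of the A and C repeat alone, so the change is one of probe signals. Whether they read only the 5p arm of this hairpin was not tested.

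**Figure D4:**
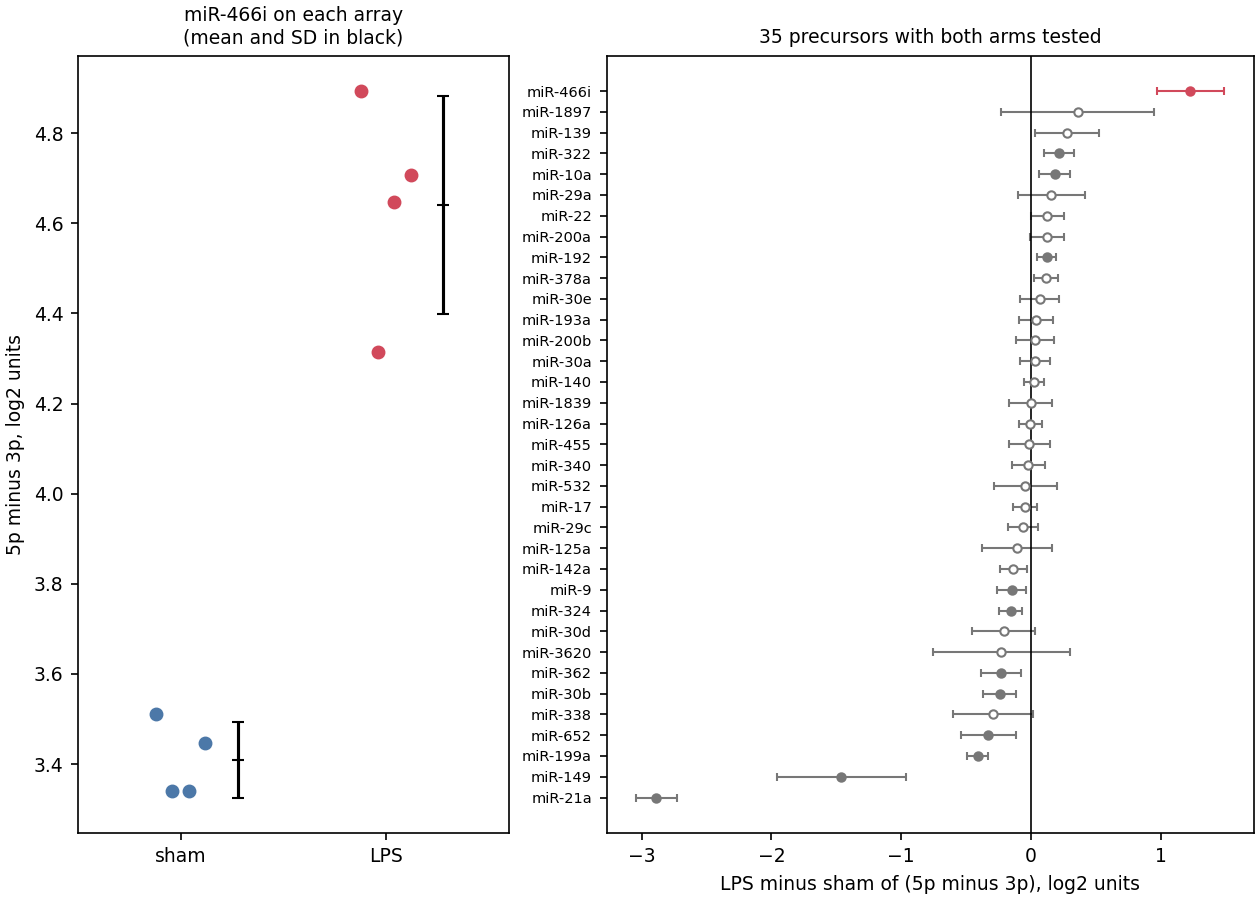
Left, log2 signal of 5p minus 3p of miR-466i on each array, with mean and SD (n = 4 per group). Right, LPS minus sham change of that value for the 35 precursors with both arms tested, with 95% intervals, filled where adjusted p was under 0.05; miR-466i, in red at the top, changed by 1.23.

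The miR-669n probe, which may read miR-669c-5p, was also set against miR-669c-3p, its neighbour on chromosome 2. This pair was chosen after its values were seen, from a member that was higher and a member that was lower, so its direction was fixed by the choice and no test is given. The difference was -0.001, -0.16, -0.41 and -0.11 on sham 5, 6, 7 and 8, where miR-669n was not well above background, and 1.14, 0.76, 0.87 and 1.21 on LPS 6, 10, 11 and 12. Whether the probe reads miR-669c-5p was not tested.

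The remaining 2 detected members came from hairpins inside Sfmbt2 and were not tested, since neither was detected on a whole group. Taken per array, the brightest probe signal of miR-467b-3p was 14.8, 9.88, 14.4 and 18.4 on sham 5, 6, 7 and 8. The last was detected, and on LPS 6, 10, 11 and 12 the signal was 0.804, 2.97, 1.40 and 2.27. The probe that gave the sham values itself read -0.94, 2.82, -1.15 and 1.15 on the LPS arrays. The groups did not overlap, and the LPS signals were at the level of undetected probes, so no fold is given. All 4 LPS values of the summed probes lay at the floor, which hides their spread, so no test is given. MiR-669f-3p, whose probes also list miR-669a-3p and miR-669o-3p, was detected on sham 5, sham 7 and LPS 10. Its brightest probe read 22.1, 18.8, 18.8 and 17.1 on sham and 18.1, 21.9, 16.4 and 16.9 on LPS arrays, and the groups overlapped.

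Repeats of the A and C type also occur in probes outside the families. Of the 7 other miRNAs with an A and C run of 8 or more bases 3 were tested, and all 3 rose. Over all tested miRNAs, 14.8% were higher in LPS. MiR-3082-5p was higher by 1.61 ± 0.13 (SE, limma adjusted p = 6.11e-05), miR-574-5p by 1.06 ± 0.10 (adjusted p = 2.26e-04) and miR-1187 by 1.01 ± 0.12 (adjusted p = 3.91e-04), with no overlap between groups. Their median was 1.06. No other miRNA on the array had a G and T run of that length (0 of 1820). After subtracting group means, miR-466i-5p varied over the 8 arrays with these 3 at r = 0.95, 0.96 and 0.97, and with miR-669n at 0.74. MiR-466i-5p also varied with the 7 G and T members, at r = 0.42 to 0.68. For miR-669n the values were 0.87, 0.79 and 0.87 with the 3 outside the families. With the 7 G and T members they were -0.07 to 0.37. MiR-669n was detected on 0 of 4 sham arrays. Its r values, the 0.74 included, therefore rest in part on sham signals that did not pass detection. The 7 G and T members varied with each other at a median r of 0.79 (0.66 to 0.96), beside a median of 0.09 over all pairs of tested miRNAs. These correlations share arrays, scaling and probe sequence and are descriptions.

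**Figure D5:**
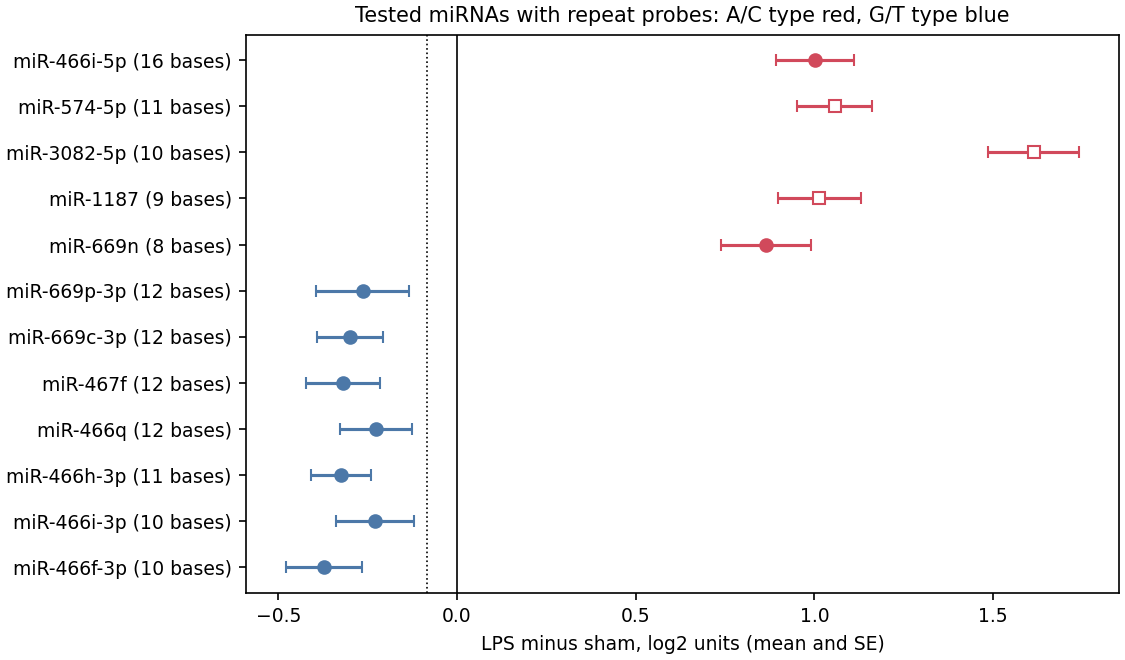
LPS minus sham difference (log2 units, mean and SE, n = 4 per group) of every tested miRNA with an alternating run of 8 or more bases in a probe, A and C type in red and G and T type in blue, with the run length in brackets. Filled circles are members and open squares other miRNAs; miR-669n is fitted against sham signals below background; the dotted line is the median of all tested miRNAs (-0.08).

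Other measurements moved with the groups. All arrays lay on 1 slide, sham in row 1 and LPS in row 2, so the row of the slide cannot be told apart from LPS. Of the miRNAs that mark kidney tubules all 5 were tested, 0 rose and 3 fell, with a summed level of 5.90 to 6.02 on sham and 5.75 to 5.94 on LPS arrays. Of 6 leukocyte miRNAs 2 rose, miR-155-5p and miR-223-3p, and 0 fell (1.18 to 1.64 and 1.79 to 1.89). MiR-142a-3p, miR-142a-5p, miR-150-5p and miR-342-3p did not pass, so the list did not rise as a whole. Of 3 red cell miRNAs 2 were tested and both rose (-0.86 to 1.66 and 1.04 to 3.79). Of 3 striated muscle miRNAs 1 was tested and did not pass (-2.53 to -2.16 and -2.31 to -2.23), and miR-133a-3p, miR-206-3p and the liver miRNA miR-122-5p were detected on no array. Over all tested miRNAs, 14.8% were higher and 25.4% lower in LPS. In whole tissue, fewer cells of a type and less RNA per cell cannot be told apart. The part of leukocytes or red cells in the rises of miR-466i-5p and miR-669n was not tested.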

How the data were processed

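The deposited intensities are scanner output of 8 arrays, spot by spot, background-subtracted and detrended per the file headers and not scaled between arrays (Agilent Feature Extraction 12.0.3.1, per the submitters' processing notes). A table of linear ratios per miRNA and array, also deposited by the authors, served only as an alternative; each miRNA in it is centred, and no source used here says where its factors per array come from. Outlier spots were dropped, spots of a probe averaged, and the 75th percentile of the 551 probes detected on every array was used to scale each array. Probes of a miRNA were summed, floored at a log2 value of -4.68 and log2-transformed. The 338 miRNAs detected on all arrays of at least 1 group were tested with limma 3.58.1 in R 4.3.3 (lmFit, eBayes, no covariates, 2-sided), also checked on simulated data. Between 15.8% and 17.5% of spots were well above background, and 0 values of tested members were at the floor. The number of arrays limits the precision.

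Every tested member is named, members detected on some arrays are named with their number, and the others are counted; up to 4 other miRNAs with AC repeats are named by smallest p. The members, the lists and these rules were chosen with earlier results of these data known. Each array was left out in turn, and the scaling, filter, floor, background correction, probe summary, variance model, slide column and source of values (the deposited table) were varied.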

Additional observations from a re-analysis of the deposited data

Results flagged for a closer look

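On sham 6 the number of members detected was 8, while each of the other 3 sham arrays had 9. The 8 stands apart from the rest of its group by the size of its gap, but the counts are whole numbers and the gap is 1 member. Chance sets apart about 1.2 of the 24 groups of values examined.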

How the results depend on the processing

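No difference of a tested member was reversed under any alternative. The count of members lower in LPS, 4, became 0 with the 75th percentile over all probes, without scaling, without the filter on dim miRNAs and in the deposited ratio table, 1 with quantile normalization, 2 with cyclic loess and 2 with slide column as a block, and ranged from 0 to 6 when single arrays were left out. The count higher, 2, became 1 where detection on all arrays of both groups was required, which removes miR-669n, and stayed at 2 without any array. MiR-466h-3p no longer passed in 7 of 23 alternatives, and calls were lost in 10 of 23 for miR-466f-3p, 12 of 23 for miR-467f and 14 of 22 for miR-669c-3p, gained in 2 of 23 for miR-466q and for miR-466i-3p, and made in 0 of 23 for miR-669p-3p and 22 of 22 for miR-669n. Over all miRNAs, the 86 lower calls became 53 with the percentile over all probes and with the deposited ratio table, 49 without scaling, 150 with spike-in scaling, 45 with slide column blocked, 31 without the filter and 55 to 100 without single arrays. The 50 higher calls became 29 without the filter and 34 to 55 without single arrays. Scaling to spike-ins moved the median of all tested miRNAs from -0.08 to -0.23. That scaling averages 2 labelling controls that differ from each other. After the main scaling, LPS minus sham was 0.25 log2 units for dmr_285 and 0.03 for dmr_31a. Without the filter limma warned that its variance estimate was unreliable, since most values were at the floor. The 12 precursors with a changed arm ratio became 48 without the filter and 6 to 13 without single arrays, where the change of miR-466i ranged from 1.15 to 1.34. Over all 18 alternatives that change lay between 0.91 (normexp) and 1.64 (deposited ratio table). The bound for miR-669n, 1.43-fold, was 1.30-fold with spike-in scaling and 1.38 to 1.51 without single arrays; these alternatives for the bound were added after seeing the data. The mean number of members detected, 8.75 in sham and 9 in LPS, was 11 and 10.75 when any spot sufficed, 6.75 and 7.5 when all spots were required and 11.25 and 10.5 by the manufacturer's flag, and 8.67 to 9 and 8.67 to 9.33 without single arrays. Normexp does not alter the detection flags and gave no separate count. The causes of these changes were not tested. Signal over background limits the 50 undetected members to an upper limit. No paired analysis by replicate number was possible because the groups share 1 number in the labels; slide column, which holds 1 array of each group, was the block tried.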
